A study of Mus musculus with 14 samples.

Results

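UDP-glucuronosyltransferases (UGT), cytosolic sulfotransferases (SULT) and glutathione S-transferases (GST) were described gene by gene across the 7 conditions of the study. The members were all genes of the deposited count table whose symbols name a Ugt1a, Ugt2a, Ugt2b or Ugt3a gene, a numbered Sult gene, or a Gst gene of the alpha, mu, pi, theta, zeta, kappa or omega class. The rule took 64 of 28022 genes, 21 in the Ugt, 21 in the Sult and 22 in the Gst family, and used no measured value.

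These enzymes carry out the conjugation step of detoxification. A UGT joins glucuronic acid from UDP-glucuronate to a drug, steroid or bilirubin, a SULT joins a sulfate group from PAPS (3′-phosphoadenosine-5′-phosphosulfate), and a GST joins glutathione to a reactive compound. The conjugates are more soluble in water and leave the hepatocyte through membrane transporters into bile or blood. In liver many Ugt and Sult genes are switched on around and after birth, and several Gst genes are known targets of Nrf2, a transcription factor of the response to oxidants and electrophiles.

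RNA sequencing covered 14 libraries, 2 per condition, all labelled as mouse, strain C57BL/6J. Mouse embryonic fibroblasts (MEFs, labelled Fib) were the source of the induced hepatic stem cells (iHepSCs), which were made with lentiviral Oct4 and Hnf4α and so carried both transgenes in every culture. The cultures were iHepSCs grown flat (2D-iHs, labelled 2D-iHepSC), iHepSCs grown flat with induced endothelial cells (2D-iHEs, labelled 2D-iHepSCiEC), iHepSCs grown as 3D liver organoids in a hydrogel (iHLOs; the label 3D-iHA was taken to mean these) and 3D assembloids of iHepSCs with induced endothelial cells (iHEAs, labelled 3D-iHEA). The endothelial cells (iECs) were made from a human fibroblast line with ETV2, so the co-cultures held human cells while the table lists mouse genes, and how many human reads were counted on mouse genes was not tested. All 4 cultures received the same medium, and adult liver and fetal liver were the tissue references, with no age or sex in the labels. Every label reads replicate 1 and none states separate cultures or animals, so p-values measure only the spread between these libraries, which may be technical.

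Total counts per library lay between 20851489 and 35143325 with a median of 28755832, and 3 counts, taken as the floor, equalled 0.0854 to 0.144 CPM (counts scaled to the library total). The hepatocyte markers summed to 249019 to 260204 CPM in adult liver, 13638 to 16835 in fetal liver and 735 to 1268 in the 8 culture libraries, where Apob, Apoa1 and, in 3D, Ttr made up nearly the whole sum. Alb averaged 1.71 CPM in the 4 flat libraries and 0.386 in the 4 3D libraries. Cyp2e1, Cyp3a11, Cyp7a1 and Serpina1a were at or near 0 in both, so Alb and these markers were nearly absent from the cultures. Of the 10 hepatocyte markers, 4 averaged 1 CPM or more in 2D-iHs, iHLOs and iHEAs and 3 in 2D-iHEs. Fibroblast markers summed to 29526 to 31218 CPM in MEFs and to 4.18 to 13.9 in the cultures. Over all genes, the chi-square per gene between the 2 libraries of a condition was 11.5 for iHEAs and 13.4 for fetal liver. It was 3.05 to 3.67 elsewhere. Over the members alone it was 17.6 for iHEAs, 5.98 for fetal liver, 5.54 for iHLOs, 4.45 for adult liver and 1.445 to 2.146 elsewhere. In bulk RNA, fewer cells of a type and less RNA per cell cannot be told apart.

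The 5′ flanking sequences of 7 members are shown because these genes carry the main contrasts described next. Sult1d1 and Sult1c2 are the sulfotransferases with the largest rise in 3D culture, Ugt1a1 encodes the bilirubin-conjugating UGT, Ugt2a3 was read in adult liver and not above the floor in any culture, Ugt2b34 is the leading Ugt of every culture, and Gsta3 and Gsta1 moved in opposite directions. Each sequence is the 150 bases before the RefSeq transcript start (build GRCm38.p6), 5′ to 3′ on the strand of the gene. GENCODE, used here for gene lengths, places some starts elsewhere. By it the Sult1c2 stretch lies inside the gene (53829637 to 53846339), and those of Sult1d1 and Gsta1 run into the gene. Capitals mark 2 motifs searched on both strands, the antioxidant response element core (TGACNNNGC) and the xenobiotic response element core (GCGTG, or CACGC on the other strand).
Sult1d1, chr5:87569007-87569156, minus strand: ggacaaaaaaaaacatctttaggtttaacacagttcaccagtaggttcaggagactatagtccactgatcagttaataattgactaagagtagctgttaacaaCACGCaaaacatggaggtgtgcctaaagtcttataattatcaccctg
Sult1c2, chr17:53845959-53846108, minus strand: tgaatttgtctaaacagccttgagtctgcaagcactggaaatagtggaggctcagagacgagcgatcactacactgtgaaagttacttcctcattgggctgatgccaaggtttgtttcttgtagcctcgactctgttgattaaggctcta
Ugt1a1, chr1:88211809-88211958, plus strand: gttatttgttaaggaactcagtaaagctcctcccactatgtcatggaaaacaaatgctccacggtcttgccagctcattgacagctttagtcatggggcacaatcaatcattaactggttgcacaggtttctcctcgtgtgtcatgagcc
Ugt2a3, chr5:87337196-87337345, minus strand: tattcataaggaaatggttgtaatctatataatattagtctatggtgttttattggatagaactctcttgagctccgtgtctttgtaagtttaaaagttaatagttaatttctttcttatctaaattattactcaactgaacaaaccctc
Ugt2b34, chr5:86906938-86907087, minus strand: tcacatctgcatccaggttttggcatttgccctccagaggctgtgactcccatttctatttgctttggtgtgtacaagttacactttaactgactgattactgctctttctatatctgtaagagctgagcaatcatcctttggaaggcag
Gsta3, chr1:21240435-21240584, plus strand: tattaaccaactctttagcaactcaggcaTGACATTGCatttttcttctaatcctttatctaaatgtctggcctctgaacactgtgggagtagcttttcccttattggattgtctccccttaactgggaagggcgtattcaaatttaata
Gsta1, chr9:78230519-78230668, plus strand: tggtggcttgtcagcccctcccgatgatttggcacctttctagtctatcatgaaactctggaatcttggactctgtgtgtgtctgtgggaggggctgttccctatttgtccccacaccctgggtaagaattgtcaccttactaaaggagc
The antioxidant core began at position -121 of Gsta3, counted back from the start, and the xenobiotic core at -47 for Sult1d1. Gsta1 held a xenobiotic core at -2 that runs past the printed end, and neither motif was found in the stretches of Sult1c2, Ugt1a1, Ugt2a3 and Ugt2b34.

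Over the whole RefSeq promoter windows of 300 bases, 67 windows matched 56 members, and 8 members had no entry (Gsta4, Gstt2, Sult2a1, Sult2a2, Sult2a7, Sult4a1, Ugt1a6b and Ugt3a2). The xenobiotic core was in 19.4% of the member windows and 32.4% of all 32851 windows, and the antioxidant core in 4.48% and 12.4%. Neighbouring genes of these clusters share sequence, so the windows are not independent. A match describes the letters in this window and is not shown to be a bound site.

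Most of the liver repertoire was read in adult liver and part of it in the cultures. Over 3 counts in both libraries were found for 51 members in adult liver, 37 in fetal liver, 36 in iHLOs, 36 in iHEAs, 34 in 2D-iHs, 34 in 2D-iHEs and 19 in MEFs. Of the 51, 15 stayed at 3 counts or fewer in each of the 8 culture libraries. These were 9 Sult genes (Sult2a1, Sult2a2, Sult2a5, Sult2a6, Sult2a7, Sult2a8, Sult3a1, Sult3a2 and Sult5a1), 6 Ugt genes (Ugt1a9, Ugt1a10, Ugt2a3, Ugt2b37, Ugt2b38 and Ugt3a1) and 0 Gst genes. Ugt2a1, Ugt2a2, Sult1e1 and Gstt4 were at 3 counts or fewer in every library of the study. Only 30 exon bases of Ugt2a1 and 140 of Ugt2a2 overlap no other gene, so their counts depend on how shared reads were counted. The heat map of all members shows this split between adult liver and the cultures. Over 3 counts were found for 20 to 21 of the 22 Gst members in each culture and 14 in MEFs. In adult liver 6 of the 8 Sult2a and both Sult3a members were over 3 counts. The share of all genes over this floor was not taken. At least 1 count was found for 16935 and 17004 of 28022 genes in adult liver and 16731 to 17587 per culture library.

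**Figure D1:**
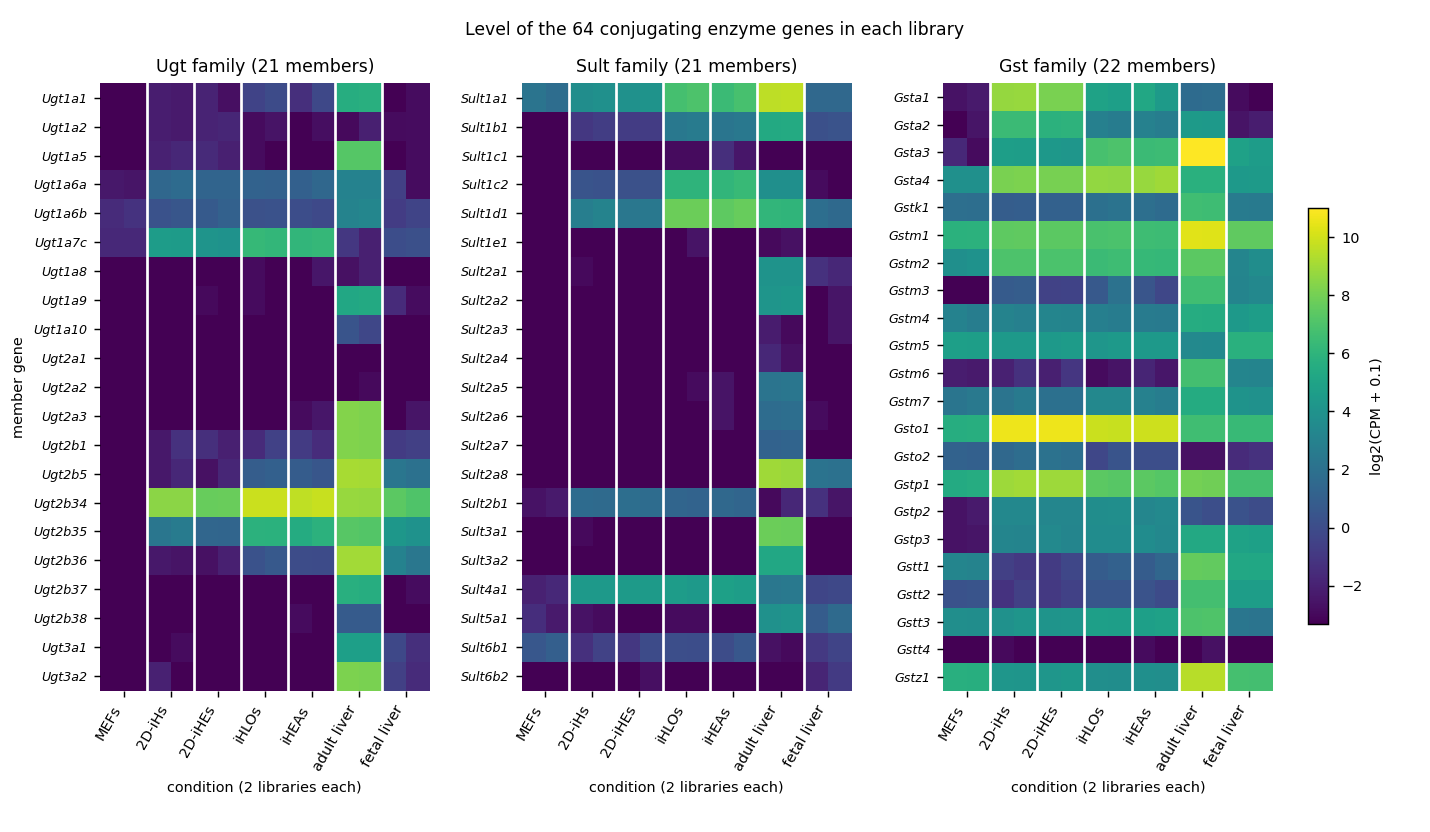
CPM of the 64 members (rows, by family) in the 14 libraries (columns, by condition), with colour for log2(CPM + 0.1). Sult2a8 and Sult3a1 reach 495 and 220.2 CPM in adult liver and 0 in the 4 3D libraries, while Gsto1 is at 901 CPM or more in all culture libraries.

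The make-up of each family was compared per length, as CPM per kilobase of merged exons (RPKM, computed here from the counts). In the cultures the Ugt family was nearly a single gene. Ugt2b34, a UGT of the 2B branch that handles steroids and drugs, held 90.5% of the summed Ugt RPKM in 2D-iHs, 88.4% in 2D-iHEs, 85.0% in iHLOs, 84.5% in iHEAs and 74.6% in fetal liver. In adult liver the sum was spread over Ugt2b5 (24.4%, 292 RPKM), Ugt2b36 (20.8%, 249 RPKM), Ugt2a3 (12.3%, 147 RPKM) and others, and Ugt2b34 stood at 101 RPKM. In MEFs the whole family summed to 0.189 RPKM, led by Ugt1a6b at 0.119. Ugt1a7c was the second Ugt gene of every culture, with 17.6 ± 1.29 RPKM in iHLOs and 17.0 ± 1.30 in iHEAs (SD, n = 2), and Ugt2b35 at 17.2 ± 0.759 and 15.6 ± 3.20 lay next to it. These lengths count the exons that Ugt1a genes share. Per length of the exon bases no other gene overlaps, Ugt1a7c was at 38.9 and 37.5 RPKM, above Ugt2b35, and in adult liver Ugt1a5 at 169 and Ugt1a1 at 132 RPKM stood near Ugt2a3 at 147.

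The Sult family changed its leading gene between flat and 3D culture. Sult1a1, which sulfates phenols, led in 2D-iHs with 40.6% (9.03 ± 0.633 RPKM), next to Sult4a1, a brain-enriched family member without a well-defined substrate, with 37.3% (8.31 ± 0.366). In iHLOs Sult1d1, a sulfotransferase of catecholamines in mice, led with 41.9% (90.4 ± 0.801 RPKM), followed by Sult1a1 with 36.5% (78.7 ± 8.89) and Sult1c2 with 15.9% (34.3 ± 0.213). In iHEAs Sult1d1 at 76.8 ± 8.57 and Sult1a1 at 65.4 ± 12.5 RPKM were the 2 leading genes. Adult liver was led by Sult1a1 with 51.5% (510 ± 7.90 RPKM), Sult3a1 with 18.8% (186 ± 5.74) and Sult2a8 with 14.7% (146 ± 7.32).

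Among the Gst genes, Gsto1, an omega-class thioltransferase that also reduces dehydroascorbate, led in each culture with 37.2% to 41.4% of the summed RPKM. The second place was held by Gsta1 in 2D-iHs (21.4%, 455 RPKM), by Gstp1 in 2D-iHEs (16.1%, 308 RPKM, with Gsta1 at 294) and by Gsta4, which conjugates the lipid peroxidation product 4-hydroxynonenal, in iHLOs (27.7%, 317 RPKM) and iHEAs (31.4%, 369 RPKM). Adult liver was led by Gstm1 (37.1%, 863 RPKM) and Gsta3 (20%, 464 RPKM), and fetal liver by Gstm1 (28.5%, 122 RPKM). The leading gene was the same in 20 of the 21 pairs of family and condition when the longest transcript set the length. The exception was the Gst family of MEFs, where Gstp1 took the place of Gstm1.

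**Figure D2:**
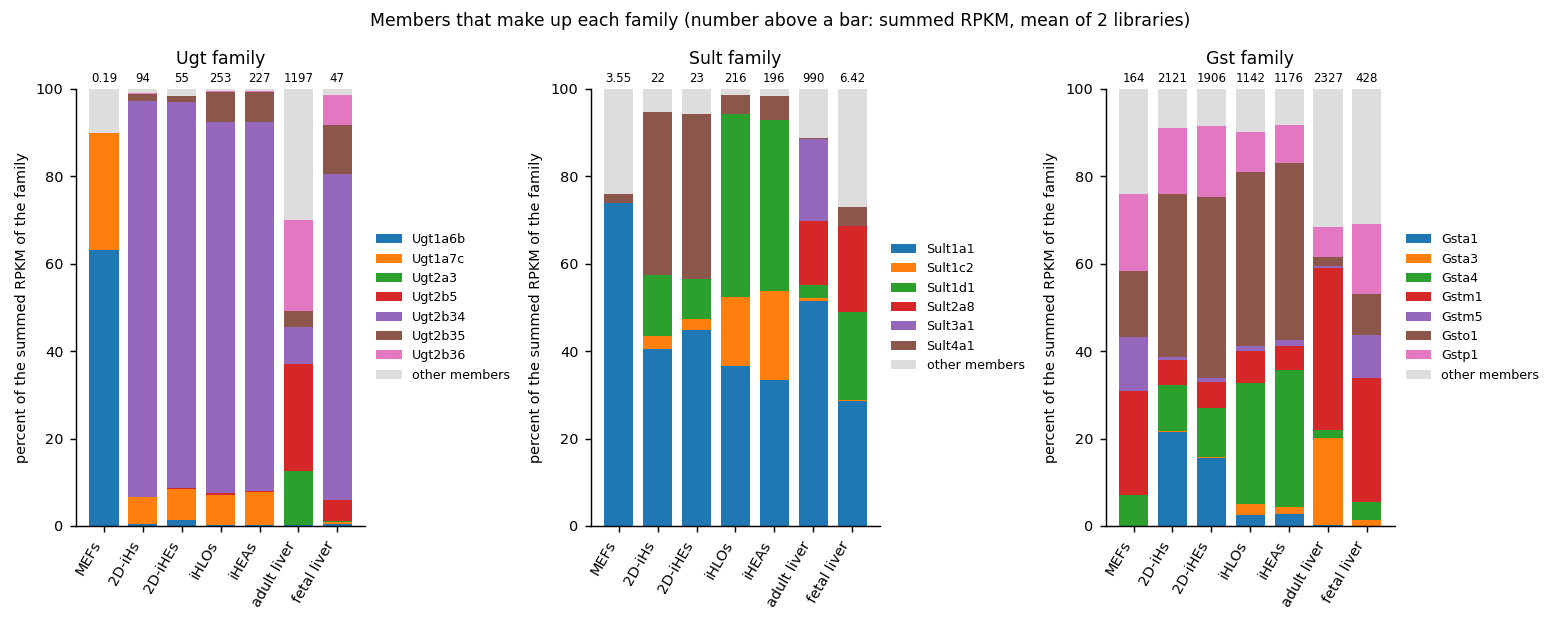
Percent of the summed RPKM of each family (vertical axis) held by its leading members in the 7 conditions, with the mean summed RPKM of 2 libraries above each bar. Ugt2b34 fills 84.5% to 90.5% of the 4 culture bars of the Ugt family, and Sult1d1 grows from 13.9% in 2D-iHs to 41.9% in iHLOs.

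The first comparison asked how 3D culture changed these genes, with the 4 3D libraries against the 4 flat ones. Most tested Sult members were called higher, and the tested Gst members split. Of 36 members that passed the filter on low counts, 20 were called higher in 3D and 12 lower, where the same test called 38.7% of all 13409 genes higher and 37.2% lower. The Ugt family had 6 higher, 1 lower and 2 not called (median log2 fold change 1.83), the Sult family 6 higher and 1 lower (2.88), and the Gst family 8 higher, 10 lower and 2 not called (0.036), beside a median of 0.014 over all genes. Ugt1a1, Ugt2b5 and Ugt2b36, called higher, and Ugt2b1, not called, passed the filter only through their 3D libraries. Genes kept that way had to be higher in 3D, and without them the Ugt family had 3 higher, 1 lower and 1 not called of 5 (median log2 1.58), and all members 17 higher and 12 lower of 32. The counts here and in the later comparisons describe the members tested, and with the stricter filter of 5 the test called 14 of 29 higher and 12 lower. With 2-fold required as well, 13 members were higher and 4 lower. The summed Ugt level was 230 to 402 CPM in flat and 902 to 1073 CPM in 3D libraries, the summed Sult level 46.5 to 49.1 and 366 to 443 CPM, and the summed Gst level 3079 to 3348 and 1952 to 2007 CPM. None of the 3 sums overlapped between the groups.

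Sult1c2 and Sult1d1, 2 sulfotransferases of the SULT1 branch, had the largest rises among the members tested. Sult1c2 had 1.21 and 1.10 CPM for 2D-iHs, 1.05 and 1.06 for 2D-iHEs, 63.6 and 63.0 in iHLOs and 69.4 and 78.9 in iHEAs. All 4 3D libraries were far above the flat ones and above adult liver, at 13.7 and 14.1 CPM, and the rise was 60.8-fold (log2 5.93 ± 0.102 SE, adjusted p = 5.19e-12, edgeR). Sult1d1 had 6.88 and 8.36 CPM in 2D-iHs, 5.06 and 5.32 in 2D-iHEs, 224 and 221 in iHLOs and 174 and 204 in iHEAs. The groups did not overlap, and the rise was 31.5-fold (log2 4.98 ± 0.145 SE, adjusted p = 1.18e-10). Sult1d1 lies between Sult1b1 and Sult1e1 on chromosome 5, where the 3 genes span 87513339 to 87591594.

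The neighbours did not move alike. Sult1b1, which sulfates thyroid hormones, had 0.394 and 0.514 CPM in 2D-iHs, 0.484 and 0.480 in 2D-iHEs, 5.13 and 6.00 in iHLOs and 4.65 and 5.26 in iHEAs. It rose 11-fold with no overlap (log2 3.46 ± 0.162 SE, adjusted p = 4.43e-09), from counts of 10 to 17 per flat library. Sult1e1, the estrogen sulfotransferase, had 2 counts in 1 iHLO library and 0 in the other 7 culture libraries. Sult1a1 on chromosome 7 had 12.9 and 14.3 CPM in 2D-iHs, 15.1 and 16.2 in 2D-iHEs, 109 and 128 in iHLOs and 85.3 and 112 in iHEAs, a 7.35-fold rise (log2 2.88 ± 0.118 SE, adjusted p = 1.51e-09). Its exons overlap the antisense gene Sgf29 by 61 bases, and the strand used in counting was not given.

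The other Sult genes that passed the filter moved by less than 2-fold. Sult6b1 was at 0.303 to 0.863 CPM in flat and 0.908 to 1.39 CPM in 3D libraries (log2 0.99 ± 0.304 SE, adjusted p = 0.0117), from 10 to 33 counts. Sult4a1 was at 20.2 to 21.9 and 21.6 to 28.6 CPM, so the groups overlapped (log2 0.19, adjusted p = 0.0353), and its call was lost without 1 library in 6 of 8 cases. Sult2b1, a cholesterol and pregnenolone sulfotransferase, was the only Sult gene called lower, at 2.98 to 3.53 CPM in flat and 2.29 to 2.76 CPM in 3D libraries (log2 -0.41 ± 0.124 SE, adjusted p = 0.0114). The remaining Sult members, namely Sult1c1, Sult1e1, Sult2a1 to Sult2a8, Sult3a1, Sult3a2, Sult5a1 and Sult6b2, did not pass the filter, and their highest culture value was 8 counts, of Sult1c1 in 1 iHEA library.

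Among Ugt genes the 2B cluster on chromosome 5 (86889767 to 87424203, 7 members) held 4 of the 6 called higher, and 2 of the 3 that did not pass the filter through 3D alone. Ugt2b34 had 364 and 367 CPM in 2D-iHs, 205 and 215 in 2D-iHEs, 928 and 923 in iHLOs and 783 and 873 in iHEAs. Every 3D library was above every flat one, with a 2.99-fold rise (log2 1.58 ± 0.188 SE, adjusted p = 1.21e-05). Ugt2b35 was at 4.82 and 6.20 CPM without iECs and 2.56 and 2.49 with iECs in flat culture, and at 59.5 and 55.9 in iHLOs and 44.7 and 59.9 in iHEAs, without overlap (13.3-fold, log2 3.73 ± 0.223 SE, adjusted p = 3.42e-08). Ugt2b5 and Ugt2b36, the leading Ugt genes of adult liver, had 2 to 6 counts per flat library and 21 to 55 counts per 3D library, and since they passed the filter only through the latter, no test is given. Their 3D levels were 0.884 to 1.96 CPM against 511 to 549 CPM in adult liver. Ugt2b1 had 3 to 16 counts per culture library, and Ugt2b37 and Ugt2b38 had at most 1 count in any culture library.

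The Ugt1a genes lie in 1 cluster on chromosome 1 (88055388 to 88220002, 9 members) with separate first exons and shared last exons. Of all 150-base stretches of their longest transcripts, 32.5% (Ugt1a6a) to 68.35% (Ugt1a7c) also occur in another member, so the division of reads among them depends on the counting and their values are uncertain. Ugt1a7c had 24.1 and 23.5 CPM in 2D-iHs, 17.1 and 15.8 in 2D-iHEs, 78.3 and 70.6 in iHLOs and 68.0 and 75.7 in iHEAs. It rose 3.56-fold without overlap (log2 1.83 ± 0.126 SE, adjusted p = 1.13e-07), and stood at 0.408 and 0.143 CPM in adult liver. Ugt1a1 had 1 to 6 counts per flat library and 8 to 24 per 3D library, or 0.279 to 0.857 CPM in 3D, against 49.1 and 52.6 CPM in adult liver. Ugt1a6b was called lower with overlapping groups (log2 -0.60 ± 0.222 SE, adjusted p = 0.0283), and Ugt1a6a was not called (log2 -0.26, adjusted p = 0.148). Ugt1a2, Ugt1a5, Ugt1a8, Ugt1a9, Ugt1a10, the 3 Ugt2a genes and both Ugt3a genes did not pass the filter.

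**Figure D3:**
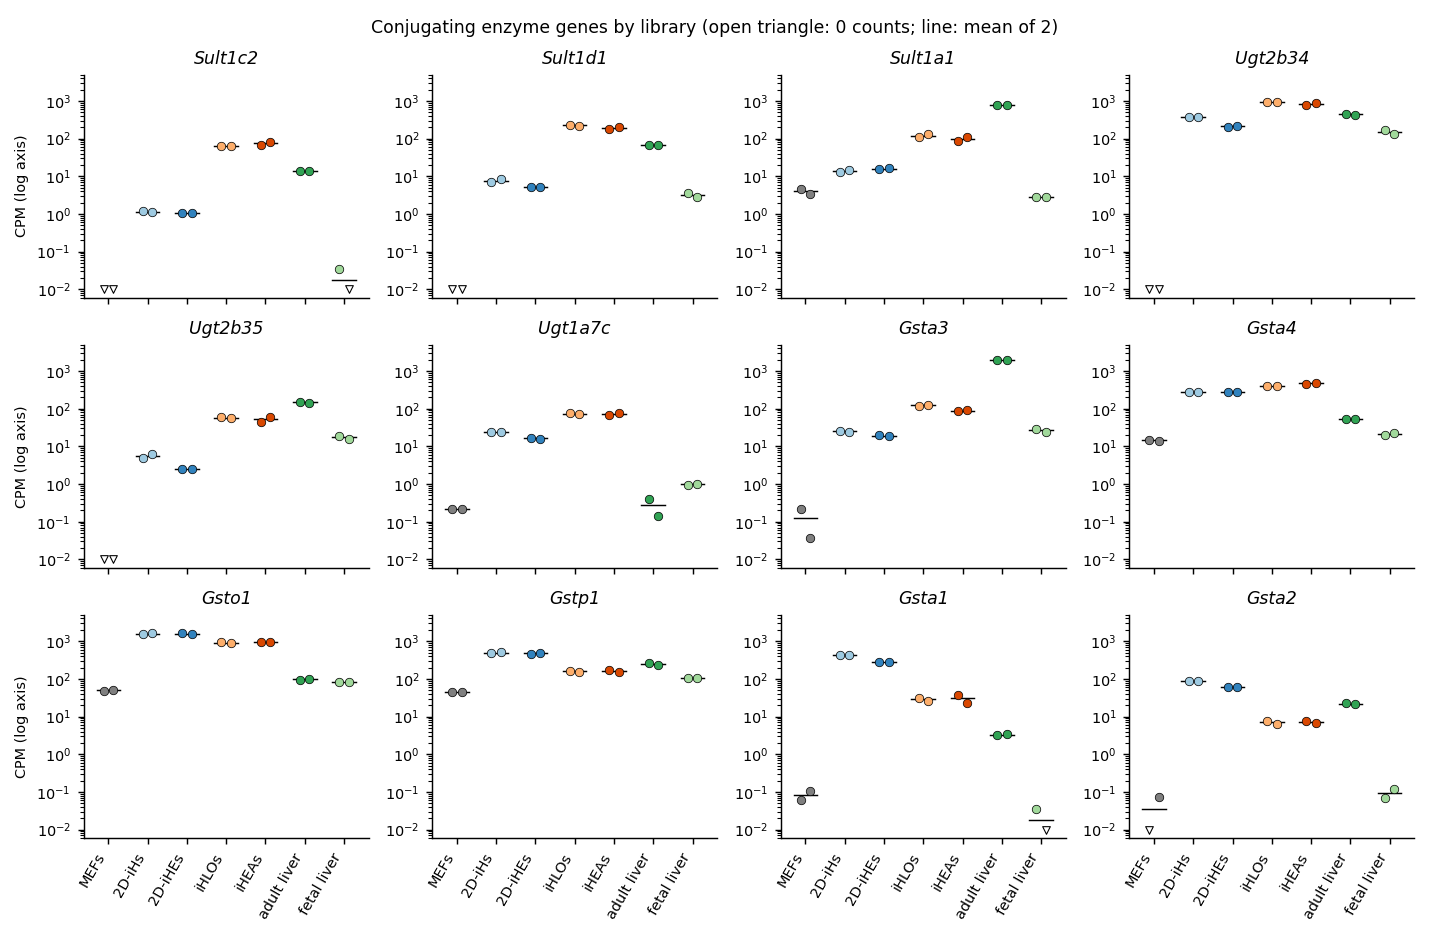
CPM (log axis) of selected members in each library, 1 point per library, by condition, with a line at the mean of 2 libraries and an open triangle for 0 counts. In CPM, before TMM scaling, Sult1d1 and Sult1c2 sit above both adult liver libraries in all 4 3D libraries, and Gsta1 falls from 281 to 436 CPM in the flat libraries to 22.5 to 37.7 CPM in the 3D libraries.

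The Gst genes moved in both directions, in part within 1 class. Gsta1 had 433 and 436 CPM in 2D-iHs, 282 and 281 in 2D-iHEs, 30.5 and 26.6 in iHLOs and 37.7 and 22.5 in iHEAs. Its 12.4-fold fall was the largest among the members tested (log2 -3.63 ± 0.202 SE, adjusted p = 1.88e-08), with no overlap. Its neighbour Gsta2 on chromosome 9 had 86.3 and 87.0 CPM in 2D-iHs, 59.0 and 60 in 2D-iHEs, 7.56 and 6.36 in iHLOs and 7.75 and 6.61 in iHEAs, and fell 10.5-fold (log2 -3.39 ± 0.161 SE, adjusted p = 4.77e-09). The 2 genes share 14.3% and 14.4% of their 150-base stretches, so a part of their reads cannot be assigned to 1 of them.

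The other alpha-class genes rose. Gsta3 on chromosome 1, known for conjugating aflatoxin epoxide in mice, had 25.7 and 24.6 CPM in 2D-iHs, 19.6 and 18.6 in 2D-iHEs, 116 and 129 in iHLOs and 86.5 and 91.8 in iHEAs. The groups did not overlap, and it rose 4.70-fold (log2 2.23 ± 0.149 SE, adjusted p = 8.84e-08). Gsta4 had 281 and 283 CPM in 2D-iHs, 273 and 271 in 2D-iHEs, 402 and 399 in iHLOs and 440.3 and 493 in iHEAs, a 1.54-fold rise without overlap (log2 0.63 ± 0.062 SE, adjusted p = 2.46e-06). All 3 theta-class genes tested rose, Gstt1 by log2 1.90 ± 0.227 SE (0.411 to 0.719 CPM in flat and 1.68 to 2.53 in 3D libraries, adjusted p = 1.28e-05), Gstt2 by 1.32 and Gstt3 by 0.68.

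In the pi and omega classes, whose genes lie in pairs or triplets on chromosome 19, the abundant members fell. Gstp1, which conjugates a range of electrophiles, had 487 and 513 CPM in 2D-iHs, 470 and 483 in 2D-iHEs, 165 and 156 in iHLOs and 167 and 151 in iHEAs. It fell 3.09-fold with no overlap (log2 -1.63 ± 0.050 SE, adjusted p = 1.59e-10), although 41.8% of its 150-base stretches also occur in Gstp2, which was not called. Gsto1 had 1589.9 and 1599 CPM in 2D-iHs, 1617 and 1576 in 2D-iHEs, 941 and 901 in iHLOs and 962 and 971 in iHEAs, a 1.72-fold fall without overlap (log2 -0.78 ± 0.038 SE, adjusted p = 6.25e-09). Its neighbour Gsto2 fell by log2 1.83 from 75 to 142 counts per flat library to 21 to 34 counts per 3D library.

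Of the mu class on chromosome 3, Gstm1, Gstm2, Gstm4 and Gstm5 were called lower, Gstm7 higher, and Gstm3 was not called. Gstm1 had 173 and 183 CPM in 2D-iHs, 171 and 169 in 2D-iHEs, 118 and 122 in iHLOs and 92.1 and 91.7 in iHEAs (log2 -0.73 ± 0.096 SE, adjusted p = 2.70e-05). Gstm2 fell by 0.62 on the log2 scale, Gstm4 by 0.42 and Gstm5 by 0.15, and Gstm7 rose by 0.93. The Gstm5 call was lost under total-count scaling (log2 -0.13, adjusted p = 0.0741) and without 1 library in 5 of 8 cases. Gstz1, the maleylacetoacetate isomerase of tyrosine breakdown, fell by 0.48, and Gstk1, a mitochondrial and peroxisomal enzyme, rose by 0.92, while Gstp3 rose by 0.32 with overlapping groups. Gstm6 and Gstt4 did not pass the filter in the cultures.

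The effect of 3D culture was also taken without and with endothelial cells. iHLOs against 2D-iHs gave 20 members higher and 8 lower of 36, beside 36.9% and 35.3% of all genes, and iHEAs against 2D-iHEs gave 18 higher and 10 lower, beside 36% and 34.9%. Without the members that passed through 3D alone, the counts were 17 and 8 of 32, and 15 and 10 of 32. The member medians were log2 0.70 and 0.67 over all 36, and 0.47 in both over the 32 members that did not pass through 3D alone. Sult1c2 rose by log2 5.74 ± 0.110 SE without and 6.11 ± 0.114 SE with iECs, and Gsta1 fell by 3.95 and 3.23.

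**Figure D4:**
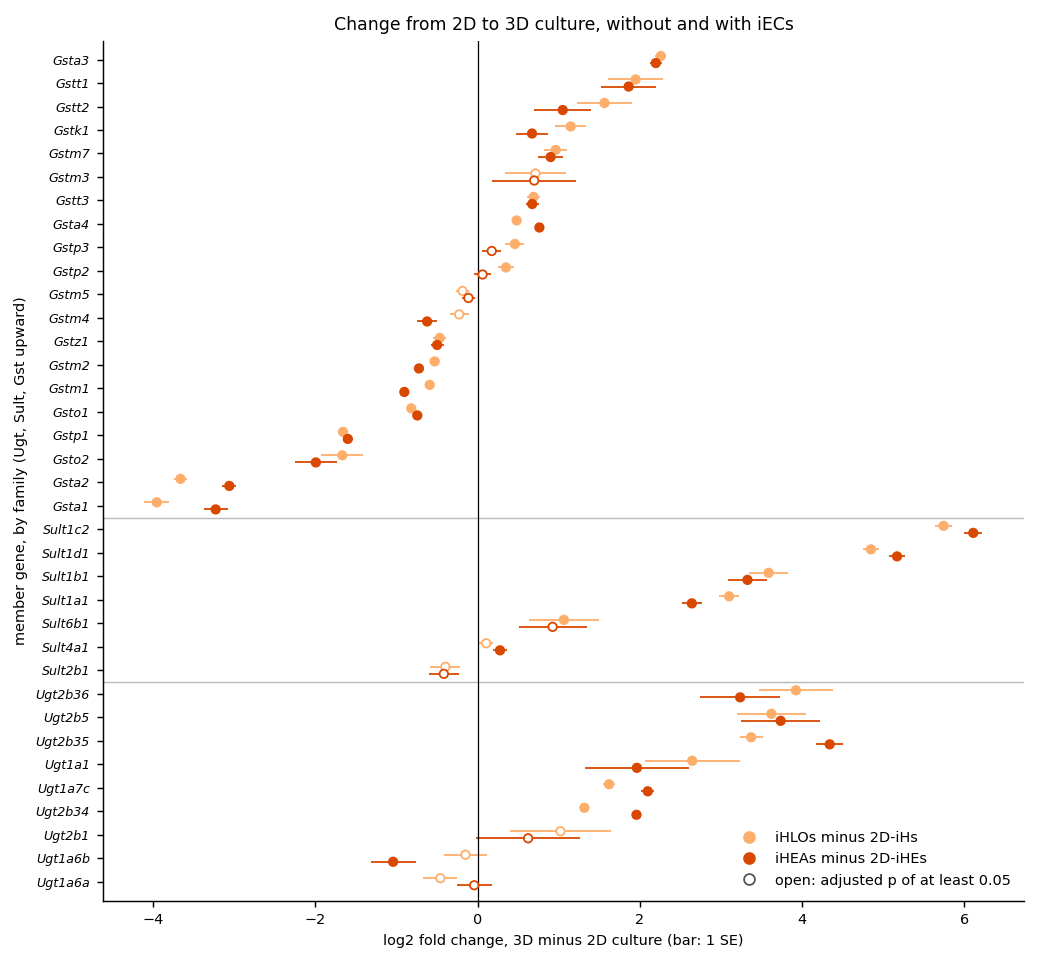
Log2 fold change from flat to 3D culture (horizontal axis, bars 1 SE) for each tested member (rows, by family), with 1 point for iHLOs against 2D-iHs and 1 for iHEAs against 2D-iHEs, open where the adjusted p was at least 0.05. Sult1c2 lies furthest right at 5.74 and 6.11 and Gsta1 furthest left at -3.95 and -3.23.

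The difference between the 2 effects, which is also the difference between the effects of co-culture in 3D and in flat culture, was called for 4 of 36 members, beside 3.14% of all genes. Ugt2b34 rose by log2 1.32 without and 1.96 with iECs (difference 0.64 ± 0.078 SE, adjusted p = 0.00103), and Ugt1a7c by 1.62 and 2.10 (difference 0.48 ± 0.110 SE, adjusted p = 0.0373). Gsta2 fell by 3.66 and 3.06 (difference 0.60 ± 0.130 SE, adjusted p = 0.0265), and Gstm1 fell by 0.59 and 0.90 (difference -0.31 ± 0.068 SE, adjusted p = 0.0281). Only Ugt2b34 kept its call whichever culture library was left out, and the count ran from 1 without the first 2D-iH library to 7 without the second iHEA library.

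Co-culture with iECs was then compared at a fixed geometry. In flat culture, 2D-iHEs against 2D-iHs, 0 members were higher and 7 lower of 36, beside 4.26% of all genes higher and 3.92% lower, and at an unadjusted p under 0.05 the edgeR count was 9. These were Ugt2b35 (log2 -1.14 ± 0.222 SE, adjusted p = 0.00813), Ugt2b34 (-0.82 ± 0.056, 4.09e-06), Gsta1 (-0.66 ± 0.128, 0.00814), Sult1d1 (-0.58 ± 0.139, 0.0238), Gsta2 (-0.57 ± 0.066, 0.000262), Ugt1a7c (-0.55 ± 0.086, 0.00193) and Gsta3 (-0.42 ± 0.076, 0.00521). In each of the 7, both 2D-iHE libraries lay below both 2D-iH libraries. The count fell to 3 without the second 2D-iHE library, and was 9 without the first iHEA library. In the same comparison 3 of 5 endothelial, 2 of 5 hepatocyte and 2 of 3 intestinal markers tested were lower, and 1 of 4 fibroblast markers was higher. Their part in the 7 falls was not tested.

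In 3D, iHEAs against iHLOs, 0 members were higher and 4 lower, beside 1.19% of all genes higher and 1.07% lower, with 12 members at an unadjusted p under 0.05 in edgeR. The 4 were Gsta3 (log2 -0.48 ± 0.061 SE, adjusted p = 0.00122), Gstm1 (-0.41 ± 0.049, 0.000995), Gstm2 (-0.27 ± 0.057, 0.0319) and Gstp2 (-0.42 ± 0.097, 0.0447), and their iHEA libraries lay below both iHLO libraries. The Gstp2 call was lost under total-count scaling (adjusted p = 0.0564). No Ugt or Sult gene was called. The DESeq2 Wald test called 1 member higher. The lower count ran from 2 without the first 2D-iH library to 8 without the second iHEA library, and 2 members were called higher without the first iHEA library. In the same comparison 3 of 5 endothelial and 2 of 4 gastric markers tested were lower, and 2 of 6 cholangiocyte markers were higher. Their part in the member calls was not tested.

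**Figure D5:**
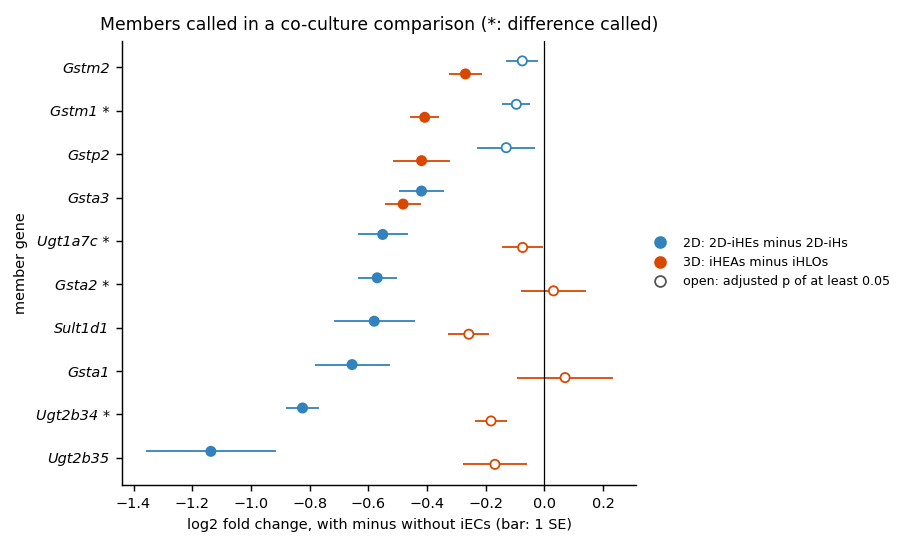
Log2 fold change with against without iECs (horizontal axis, bars 1 SE) for the members called in a co-culture comparison (rows), in flat culture and in 3D, open where the adjusted p was at least 0.05 and with an asterisk where the difference between the effects was called. Ugt2b34 is at -0.82 in flat culture and -0.18 in 3D, and Gstm1 at -0.10 and -0.41.

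Genes that feed, empty or regulate the conjugation pathways were counted in 3D against flat culture, where the test called 38.7% of all genes higher and 37.2% lower, a share to which several of these short lists lie close. Glutathione synthesis and recycling had 0 of 9 genes higher and 7 lower (median log2 -1.03), led by both subunits of the rate-limiting enzyme, Gclc (1682 to 342 CPM, log2 -2.32) and Gclm (386 to 98.2 CPM, log2 -2.0). Nrf2 and its targets, a list that shares Gclc, Gclm and Slc7a11, had 1 of 9 higher and 8 lower (median -1.85). Nfe2l2, which encodes Nrf2, itself changed by 0.10, while Nqo1 fell by 4.93 and Srxn1 by 2.58. The summed level of this list was 4516 to 5142 CPM in flat and 1455 to 1566 CPM in 3D libraries. The Gst genes split in the same comparison, with 8 called higher and 10 lower. The part of this list in their changes was not tested.

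The lists for UDP-glucuronate and PAPS supply moved in both directions. For UDP-glucuronate 1 of 5 genes was higher and 3 lower, with Ugdh, the dehydrogenase that makes it, falling from 542 to 282 CPM (log2 -0.97). For PAPS 4 of 7 were higher and 2 lower (median 0.34). Conjugate export had 1 of 6 tested genes higher and 5 lower (median -1.58), in which Abcc1 fell by 2.10, the canalicular pump Abcc2 by 1.77 and Abcc4 by 1.74 while the basolateral pump Abcc3 rose by 0.45. Other conjugating enzymes had 4 of 8 tested genes higher and 4 lower, with Tpmt, the thiopurine methyltransferase, at log2 1.56 and Glyat, the glycine acyltransferase, which passed the filter only through the flat libraries, at 2.08 CPM in these and 0.0435 CPM in 3D.

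Of the xenobiotic receptors and liver factors, 5 of 9 tested genes were called higher and 2 lower, and 1 of the 5, Nr1i2, had to be higher. Nr1i2, which encodes the pregnane X receptor, averaged 0.177 CPM in flat and 4.31 CPM in 3D libraries and passed the filter only through the latter. Cebpa rose from 3.51 to 14.9 and Ahr from 11.7 to 28.9, while Hnf4a was not called. Hnf4a is one of the conversion factors, and reads of the transgene and of the cells' own gene cannot be told apart in this count.

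Markers of other cell types moved with 3D culture as well. Gastric markers summed to 3.98 to 9.49 CPM in flat and 352 to 575 CPM in 3D libraries, led by Gkn2 and Gkn1, with Tff1 and Tff2 near 0. Intestinal markers summed to 41.9 to 60.9 and 201 to 244 CPM, mostly Vil1. The hepatocyte list went from 735 to 764 CPM to 1202 to 1268 CPM. Endothelial markers summed to 473 to 528 CPM in flat and 1037 to 1568 CPM in 3D libraries, and were highest in the iHLOs, which held no iECs. The iECs are human, so these sums of mouse endothelial markers cannot tell how many iECs a culture held. Of the 5 tested, 4 were higher and 0 lower (median log2 3.56), with Vwf and Tek rising by 4.82 and 5.90, while Cdh5 was not called (log2 -0.02) and Pecam1, which passed the filter only through 3D, and Kdr stayed under 1 CPM. The part of these lists in the rise of Sult and Ugt genes was not tested.

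iHepSCs were set against MEFs, the cell type they were made from, to see which members differed after conversion. Xist and the Y-linked genes Ddx3y, Uty, Kdm5d and Eif2s3y each averaged at least 1 CPM in MEFs. These Y-linked genes had 0 counts in both 2D-iH libraries. Whether the sequenced MEFs were those that were converted is not given. In 2D-iHs 27 of 37 tested members were higher than in MEFs and 6 lower, beside 45.7% and 38.2% of all 14121 genes. The median was log2 4.66 (0.11 over all genes), with 8 of 9 Ugt, 6 of 7 Sult and 13 of 21 Gst genes higher. Ugt2b34 had 0 counts in both MEF libraries, which puts 2D-iHs at least 3349-fold higher against the floor of 3 counts per library. Sult1d1, Ugt2b35, Gstm3, Sult1c2 and Sult1b1 were also at 0 in MEFs, and against the same floor 2D-iHs were at least 63.4-fold, 44.4-fold, 14.8-fold, 10.1-fold and 3.63-fold higher.

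Gsta1 had 2 and 3 counts in MEFs and 14304 and 12733 counts in 2D-iHs, and Gsta2 had 0 and 2 against 2849 and 2540, and both were called higher. Gsto1 went from 47.9 and 51.3 CPM to 1589.9 and 1599 (log2 4.99 ± 0.071 SE, adjusted p = 1.77e-17). Gstt1 went the other way, from 9.20 and 8.36 CPM in MEFs to 0.545 and 0.411 in 2D-iHs (log2 -4.19 ± 0.203 SE, adjusted p = 1.78e-11). Sult6b1, Gstz1, Gstt2, Gstk1 and Gstm5 were the other 5 called lower, by 1.88, 1.56, 1.44, 1.02 and 0.30 on the log2 scale.

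Adult liver was compared with fetal liver, as the tissue at a later and an earlier stage. Adult liver was higher for 32 of 37 tested members and lower for 2, beside 40% and 43.8% of all genes. The median was log2 4.54, against -0.10 over all genes. Ugt1a1 and Ugt2b1 passed the filter only through the adult libraries, and without them 30 of 35 were higher. Alb alone held 23.6% and 22.5% of the adult counts. Scaling by total counts moved the median of all genes by -1.42, and under that scaling 31 members were higher and 4 lower. Erythroid markers summed to 38275 to 38371 CPM in fetal and 262 to 277 CPM in adult liver. The part of this difference in cell make-up was not tested. Gsta3 had 29.4 and 23.9 CPM in fetal and 2015 and 2020.3 CPM in adult liver (log2 7.69 ± 0.125 SE, adjusted p = 3.51e-17). Sult1a1 had 2.76 and 2.80 CPM in fetal and 759.9 and 777 CPM in adult liver (log2 9.56 ± 0.157 SE, adjusted p = 3.86e-17), and Ugt2b5 had 4.78 and 3.94 against 549 and 537 (log2 8.40 ± 0.105 SE).

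Ugt1a1, Ugt2b1, Sult1c2, Gsta2, Gsta1, Ugt2b36 and Sult1b1 completed the 10 largest adult increases among the 37 members tested. Ugt1a1 and Ugt2b1 had to be higher, since they passed the filter only through adult liver. Sult2a8 and Sult3a1 failed the filter and were not ranked. Ugt2b36 was higher by log2 7.71 and Sult1b1 by 6.71. Ugt2b1 had 10829 and 10463 counts in adult and 13 and 14 in fetal liver. The other 4 had at most 3 counts in either fetal library, against 1687 and 1842 adult counts for Ugt1a1, 470 and 494 for Sult1c2, 109 and 120 for Gsta1 and 770 and 763 for Gsta2. The 2 lower in adult liver were Gstm5 (10.6 and 11 against 55.2 and 53.6 CPM, log2 -0.88 ± 0.075 SE) and Sult6b1 (1 and 2 counts against 12 and 17). The call of Sult6b1 was lost when any of 3 of the 4 liver libraries was left out (either adult library or the second fetal one). Sult3a1 had 7558 and 7383 counts in adult liver and 0 in fetal liver, at least 1782-fold higher. Sult2a1, Sult2a2 and Sult3a1 are known as female-predominant genes of mouse liver, and the adult libraries had Xist at 427 and 467 CPM and 0 counts of the Y-linked genes Ddx3y, Uty, Kdm5d and Eif2s3y. The study's methods describe adult liver RNA from male mice, which goes against these counts, and whether the sequenced livers came from those mice is not given in the sources used here.

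The organoids were last compared with adult liver. In iHLOs 11 of 37 tested members were higher and 26 lower, beside 45.7% and 39.2% of all genes, with a member median of log2 -3.40 (0.13 over all genes). The Ugt genes were 1 higher and 8 lower, the Gst genes 5 and 16, and the Sult genes 5 and 2. Ugt1a1 and Ugt2b1 passed the filter only through adult liver and had to be lower. Without them the Ugt genes were 1 higher and 6 lower of 7 (median log2 -3.40). Total-count scaling moved the median of all genes by 1.43 and gave 13 higher and 24 lower, since Ugt2b34 and Gstm5 changed from called lower (log2 -0.39 and -0.65) to called higher. Members at 0 counts in iHLOs are not in these counts where they failed the filter.

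Of the members tested, Ugt1a7c stood furthest above adult liver. It had 78.3 and 70.6 CPM in iHLOs against 0.408 and 0.143 in adult liver (log2 6.60 ± 0.182 SE, adjusted p = 1.25e-14). Gsto1, at 941 and 901 against 95.7 and 96.9 CPM, was higher by log2 1.78 ± 0.062 SE, Gsta4 by 1.40 and Gsta1 by 1.63. Sult1c2, at 63.6 and 63.0 against 13.7 and 14.1 CPM, was higher by log2 0.71 ± 0.079 SE, and Sult1d1, at 224 and 221 against 68.1 and 66.8 CPM, by 0.24 ± 0.074 SE (adjusted p = 8.43e-07 and 0.00743). The call of Sult1d1 was lost with the DESeq2 size factors (log2 0.09), the DESeq2 Wald test (0.09), the stricter filter (0.11) and without either adult library (0.18 and 0.12). Gstp2 was higher by log2 2.10 and Sult4a1 by 0.65. The other 3 had few adult counts, Sult6b1 with 28 and 27 against 2 and 1 counts, Sult2b1 with 70 and 64 against 1 and 7, and Gsto2 with 21 and 34 against 2 and 2.

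The members below adult liver included its leading enzymes. Ugt2b5 and Ugt2b36 were lower in iHLOs, at log2 -9.66 and -10.10. Ugt2b1 had 7 and 16 counts in iHLOs against 10829 and 10463 in adult liver and Ugt1a1 18 and 24 against 1687 and 1842, and both passed the filter only through adult liver, and without them 24 of 35 tested members were lower. Gstm6 had 1 and 2 counts in iHLOs against 3591 and 3678 in adult liver. Gstz1, at 13.2 and 12.9 CPM in iHLOs against 696 and 709 in adult liver, was lower by log2 7.23 ± 0.072 SE (adjusted p = 4.39e-19), and Gsta3 by 5.52, Gstm1 by 4.88 and Sult1a1 by 4.17. Adult liver was at least 4304-fold higher for Sult2a8, 2829.5-fold for Ugt2a3, 2598-fold for Ugt3a2, 1967-fold for Sult3a1 and 449-fold for Ugt2b37, all at 0 counts in both iHLO libraries.

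The same lists around the pathway were read against adult liver, beside 45.7% of all genes higher and 39.2% lower, and several of them lie near that share. UDP-glucuronate supply had 0 of 5 genes higher and 4 lower, PAPS supply 3 of 7 higher and 3 lower, with Papss2, the main PAPS synthase of liver, at 20.8 against 446 CPM. Glutathione synthesis had 5 of 9 higher and 4 lower, conjugate export 3 of 7 higher and 4 lower, with Abcc2 at 1.72 against 404 CPM, and the receptors and liver factors 1 of 9 higher and 8 lower. In the deconjugation list, with 1 of 5 higher and 4 lower, Gusb, the β-glucuronidase that cleaves glucuronides, was at 118 and 119 CPM in MEFs and 0.25 to 0.576 CPM in all 8 culture libraries, against 49.7 and 53.5 CPM in adult liver.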

How the data were processed

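The authors sequenced the libraries as paired 150-base reads on a NovaSeq instrument and, per the labels and the study's methods, trimmed them with Trimmomatic 0.36, mapped the reads to mm10 (GRCm38) using HISAT2 and counted reads per gene with HTSeq (Cufflinks is also named). The deposited values are whole-number counts per gene, not normalized. How reads on several genes or on either strand were handled is not given in the sources used here. The second iHEA column carries conflicting numbers, so it was left out of the replicate block.

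Here CPM were counts scaled to the library total, and RPKM used merged exon lengths from GENCODE vM21 (GRCm38), while promoter sequences came from RefSeq. Tests were edgeR 4.0.16 quasi-likelihood tests (R 4.3.3, TMM, mean log2(count + 1) of at least 3, Benjamini-Hochberg adjusted p under 0.05 over all genes tested), in fits of the 8 culture libraries (3D against flat as 4 against 4, the others with 1 term per condition) and of all 14 libraries for comparisons with MEFs or liver. The test was checked only on simulated counts in which few genes changed. That setting is unlike these comparisons, so no conclusion is drawn from it. Alternatives were other filters and scalings, the DESeq2 1.42.0 Wald test, a fold threshold, a replicate block, a shared spread and each library left out. A 150-base stretch of a member's longest transcript counted as shared where it occurred in a transcript of another Ugt, Sult or Gst symbol. Members named in full were up to 10 of the largest called increases and decreases without overlap in each comparison, the 3 highest by RPKM in each family and condition, and those with a called difference between effects. The member rule used no measured value, but this gene group and the lists were chosen with earlier results of these data known. A gene of 1 list and a promoter motif are not reported here.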

Additional observations from a re-analysis of the deposited data

Results flagged for a closer look

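In the 3D libraries, 3 members had 1 library far from the other 3, by the gap to the nearest library divided by the whole range. Gstm5 had a ratio of 0.847, with the first iHLO library lowest at 18 CPM and the others at 20.2 to 20.6. Gstp3 had a ratio of 0.865, with the second iHEA library lowest at 10.1 CPM and the others at 12.3 to 12.6. Sult6b1 had a ratio of 0.869, with the second iHEA library highest at 1.39 CPM, or 33 counts, and the others at 0.908 to 0.971. Of 72 groups of 4 libraries tested, chance would flag about 1 in 20.

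The effect of 3D culture differed between cultures with and without iECs for 4 members by the edgeR test of the difference. With iECs minus without, the log2 difference was 0.642 for Ugt2b34, 0.601 for Gsta2, 0.477 for Ugt1a7c and -0.312 for Gstm1. The calls of Gsta2, Ugt1a7c and Gstm1 were each lost when single libraries were left out, including either 2D-iH library and either 2D-iHE library.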

How the results depend on the processing

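Counts of members called, higher and lower, depended on the settings as follows. With a log2 fold change of at least 1, 3D against flat culture gave 13 and 4, iHLOs against 2D-iHs 4 lower, iHEAs against 2D-iHEs 5 lower, iHEAs against iHLOs 0 lower, 2D-iHEs against 2D-iHs 1 lower, the difference between effects 0, and adult against fetal liver 1 lower. Without the filter, iHEAs against iHLOs gave 1 and 9, the difference between effects 8, adult against fetal liver 51 higher and iHLOs against adult liver 46 lower, and with only the members under the filter added the last counts were 53 and 47. With the filter at 5, adult against fetal liver gave 1 lower and iHLOs against adult liver 7 higher. The DESeq2 Wald test gave 1 higher for iHEAs against iHLOs, and total-count scaling, chosen after seeing the data, 4 lower for adult against fetal liver. When the other libraries shared the spread, the difference between effects gave 2, adult against fetal liver 1 lower and iHLOs against adult liver 41 lower. Same-numbered libraries did not deviate together (correlations -0.13 to 0.116 over 15 pairs). With the replicate block, iHEAs against iHLOs gave 1 and 7 and the difference between effects 7, and the same libraries without the block, a setting chosen after seeing the data, gave 2 and 8 and again 7. Leaving out 1 library gave 18 to 20 higher and 10 to 12 lower for 3D against flat culture, 18 to 21 and 8 to 10 for iHLOs against 2D-iHs, 16 to 18 and 10 for iHEAs against 2D-iHEs, 0 to 2 and 2 to 8 for iHEAs against iHLOs, 0 and 3 to 9 for 2D-iHEs against 2D-iHs, 1 to 7 for the difference between effects, 31 to 34 and 1 to 2 for adult against fetal liver, 25 to 28 and 6 for 2D-iHs against MEFs, and 10 to 11 and 25 to 28 for iHLOs against adult liver. Among single members, 68 values with 1 library left out lost the call and 1707 kept it. The losses were in Gsta1, Gsta2, Gsta3, Gstm1, Gstm2, Gstm5, Gstp2, Sult1d1, Sult4a1, Sult6b1, Ugt1a1, Ugt1a6b, Ugt1a7c and Ugt2b35. The replicate block lost the calls of Gstm5, Sult4a1 and Ugt1a6b in 3D against flat culture and of Gstm2 in iHEAs against iHLOs, and the same libraries without it lost the first 3 as well. Gstm5 and Ugt2b34 in iHLOs against adult liver changed direction under total-count scaling, to 0.78 and 1.04 (log2), and no other named member changed direction in the alternatives run. The cause of these changes was not tested. With 2 libraries per condition, members below the floor were not detectable at this depth rather than absent.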
